A study of Mus musculus with 20 samples.

Results

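Siglech, Ccr9, Ly6d, Tcf4, Spib, Cox6a2 and Pacsin1 are genes by which mouse plasmacytoid dendritic cells are recognised, and they were picked by symbol from the gene table of whole lymph nodes, where they are 7 of 56258 genes. All 7 passed the filter on low counts. RNA was sequenced from gut-draining nodes at 4 positions (duodenal, jejunal, ileal and ceco-colonic) and from the inguinal node, which drains skin, with 4 libraries per position and 20 in all. Every mouse was 9 weeks old and Rag1-/- (B6.129S7-Rag1tm1Mom/J), so all groups lacked mature T and B cells and no wild-type node is part of the comparison. Other cells of the node remain in such mice: the monocyte and macrophage receptor Csf1r was measured at 565 to 1099 CPM, the endothelial gene Pecam1 at 305 to 481 CPM and the NK-cell receptor Ncr1 at 53.2 to 95.5 CPM over the 20 libraries. CPM are estimated counts divided by the TMM-scaled library size in M (mega counts). Libraries of a position carry numbers in the labels, which do not tie them to different mice, and the p-values below therefore describe the spread among these libraries alone.

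Plasmacytoid dendritic cells are rare blood-borne cells that sense viral nucleic acids in their endosomes through Toll-like receptors and answer with type I interferon. The E protein TCF4 sets their identity together with the Ets factor SPIB, and resting cells carry the lectin SIGLEC-H and the chemokine receptor CCR9, whose ligand CCL25 draws cells to the small intestine. Most of these genes are shared with other cells: stromal and B-lineage cells make Tcf4, B-lineage and M cells make Spib, lymphoid progenitors make Ly6d, neurons make Pacsin1 and striated muscle makes Cox6a2. In RNA of whole nodes, fewer cells of a type and less RNA per cell cannot be told apart.

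The promoters of 3 genes are printed because the results turn on their genes: Siglech and Spib moved in opposite directions, and transcripts from the Pacsin1 exon behind this promoter were scarce in inguinal nodes. They are RefSeq promoters (GRCm38.p6), found for 4 of the 7 genes, trimmed to the bases before the first annotated exon and written 5′ to 3′ on the gene's strand. Capitals mark the E-box CANNTG, the motif of E proteins such as TCF4, which reads the same on both strands.
Promoter of Siglech, chr7:55767934-55768177, plus strand: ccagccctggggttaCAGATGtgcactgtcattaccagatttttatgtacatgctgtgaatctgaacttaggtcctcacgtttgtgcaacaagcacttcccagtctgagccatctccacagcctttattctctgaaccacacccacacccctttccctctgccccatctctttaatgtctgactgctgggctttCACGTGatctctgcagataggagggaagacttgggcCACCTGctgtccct
Promoter of Spib, chr7:44532072-44532321, minus strand: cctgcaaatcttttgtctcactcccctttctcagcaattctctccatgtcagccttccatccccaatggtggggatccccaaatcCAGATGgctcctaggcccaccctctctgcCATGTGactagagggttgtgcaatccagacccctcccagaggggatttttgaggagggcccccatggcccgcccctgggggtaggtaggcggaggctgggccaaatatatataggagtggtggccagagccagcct
Promoter of Pacsin1, chr17:27684989-27685180, plus strand: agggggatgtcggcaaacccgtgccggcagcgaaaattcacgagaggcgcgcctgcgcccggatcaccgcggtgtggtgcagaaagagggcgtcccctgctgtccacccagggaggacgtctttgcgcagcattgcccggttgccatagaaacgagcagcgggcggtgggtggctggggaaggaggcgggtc
Siglech held 3 E-boxes in 244 bases, and 65.4% of 27025 promoters cut to that length hold at least 1. Spib held 2 in 250 bases (66% of promoters), and Pacsin1 held 0 in 192 bases (57.7% of promoters). A match describes the letters of the window and no binding was measured.

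Depth ran from 148 to 305 M estimated counts per library, and the least abundant of the 7 genes, Cox6a2, had 211 or more estimated counts in each. Duodenal libraries 1 and 2 stood apart in Gp2, a membrane glycoprotein of M cells and of pancreatic zymogen granules, at 252 and 169 CPM. The other gut libraries had 1.58 to 3.39 CPM, and inguinal libraries were lower still at 0.0486 to 0.0711 CPM. Calls of the 7 genes between positions that depend on duodenal libraries 1 and 2 are therefore named, and for the F-test over gut positions their number is given.

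The 7 genes did not move as a block. In gut-draining against inguinal nodes, Spib and Pacsin1 rose, Siglech, Tcf4 and Cox6a2 fell, and Ccr9 and Ly6d did not pass the test (edgeR quasi-likelihood, adjusted p under 0.05 by Benjamini-Hochberg across the 29411 genes tested). That is 5 of 7 called, beside 26.3% of all genes, and the median log2 fold change of the 7 was -0.15, beside 0.002 over all genes. The libraries of both groups did not overlap for 4 of the 7, beside 9.53% of all genes. Added up, the 7 genes came to 398 to 497 CPM in gut libraries and 433 to 487 CPM in inguinal libraries, which overlap.

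Taken by position, 6 of 7 passed the test in duodenal against inguinal nodes (beside 25.3% of all genes), 6 in jejunal against inguinal (20.9%), 6 in ileal against inguinal (22.6%) and 4 in ceco-colonic against inguinal nodes (21%). Between small intestinal nodes (duodenal, jejunal and ileal) and ceco-colonic nodes, Pacsin1 rose and Ly6d, Spib and Cox6a2 fell, 4 of 7 beside 16.6% of all genes, with a median log2 difference of -0.07, beside 0.006 over all genes. Spib alone did not overlap there, beside 6.18% of all genes. In pairs of gut positions, 3 of 7 passed in duodenal against ceco-colonic nodes (beside 16.4%), 3 in ileal against ceco-colonic (12.8%), 2 in jejunal against ceco-colonic (12.2%) and 1 in duodenal against ileal nodes (14.6%). By edgeR, DESeq2 and limma-voom alike, 0 of 7 passed in duodenal against jejunal (beside 2.83% by edgeR) and 0 in jejunal against ileal nodes (0.0680%), with 1 (Ly6d) and 0 of 7 at an unadjusted edgeR p under 0.05. The F-test of edgeR over the 4 gut positions called 5 of 7, beside 21.3% of all genes, and fewer of the 7 without duodenal libraries 1 and 2.

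On the TPM scale, which corrects for transcript length, Siglech was the most abundant of the 7 in inguinal nodes at 142 ± 10.3 TPM (mean ± SD, n = 4), ahead of Spib at 64.9 ± 2.79 TPM and Tcf4 at 62.7 ± 2.46 TPM. In ceco-colonic nodes Spib led at 113 ± 7.395 TPM, ahead of Siglech at 89.2 ± 9.67 TPM. The least abundant gene was Cox6a2 at each gut position (5.87 to 11.2 TPM as position means) and Pacsin1 in inguinal nodes (8.84 ± 1.45 TPM).

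**Figure D1:**
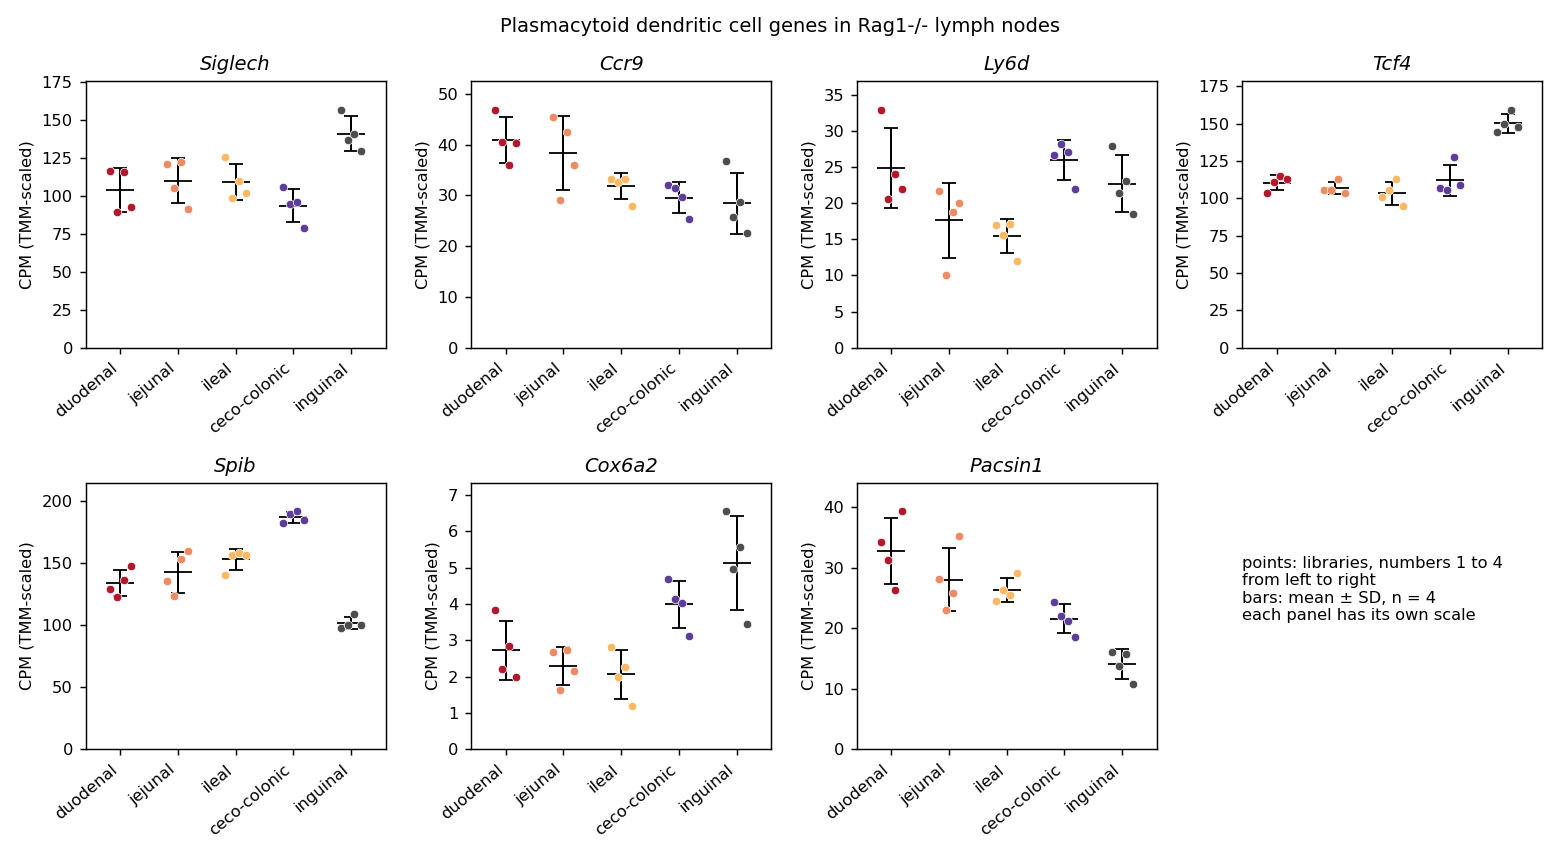
Level of the 7 genes in CPM (vertical axis, own scale per gene) in every library of the 5 positions; points are libraries and bars the mean ± SD (n = 4). Siglech and Tcf4 stand highest in inguinal nodes, Spib in ceco-colonic and Pacsin1 in duodenal nodes.

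Siglech (ENSMUSG00000051504) encodes the sialic acid-binding lectin SIGLEC-H, a surface receptor that signals through the adaptor DAP12. Duodenal libraries had 116.5, 89.6, 116 and 93.0 CPM, jejunal libraries 121, 105, 122 and 91.6, ileal libraries 125, 98.6, 109.9 and 102 and ceco-colonic libraries 106, 94.5, 95.9 and 78.8 CPM. Inguinal libraries had 157, 137, 141 and 129.7 CPM. Every inguinal library was above every gut library, while the gut positions overlapped with each other. The mean was 104 ± 13.5 CPM in gut-draining and 141 ± 11.54 CPM in inguinal nodes (SD, n = 16 and 4), a log2 fold change of -0.44 ± 0.09 (SE, edgeR adjusted p = 0.00055). Each gut position was lower than inguinal, from -0.36 ± 0.11 in jejunal nodes (edgeR adjusted p = 0.0271) to -0.59 ± 0.11 in ceco-colonic nodes (0.000603). The jejunal call was lost without inguinal library 1 or 3 or jejunal library 2 or 4, with an edgeR adjusted p of up to 0.1. The ileal call (0.0202) was lost without inguinal library 1 or ileal library 2 or 4, with up to 0.0681. Among the gut positions Siglech did not pass the F-test (edgeR adjusted p = 0.358).

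Ccr9 (ENSMUSG00000029530), the receptor for CCL25, was highest at the upper end of the gut. Duodenal libraries had 46.9, 40.4, 35.9 and 40.3 CPM, jejunal libraries 45.5, 29.1, 42.5 and 35.9, ileal libraries 33.3, 32.7, 33.2 and 28.0 and ceco-colonic libraries 31.9, 31.5, 29.6 and 25.25 CPM. Inguinal libraries had 36.7, 25.7, 28.8 and 22.5 CPM. The inguinal range overlapped that of every gut position, and the duodenal libraries were all above the ileal and ceco-colonic ones. Means fell in the order duodenal (40.9 ± 4.52 CPM, SD, n = 4), jejunal (38.25 ± 7.30), ileal (31.8 ± 2.56), ceco-colonic (29.6 ± 3.05) and inguinal (28.4 ± 6.065 CPM), and no neighbours in that order passed the test. Ccr9 rose in duodenal against inguinal nodes, with a log2 fold change of 0.52 ± 0.14 (SE, edgeR adjusted p = 0.00812). It also rose in jejunal against inguinal nodes (0.43 ± 0.14, edgeR adjusted p = 0.0319) and in duodenal against ceco-colonic nodes (0.47 ± 0.14, 0.0254).

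Gut-draining nodes as a whole had 35.1 ± 6.37 CPM of Ccr9 and inguinal nodes 28.4 ± 6.065 CPM (SD, n = 16 and 4), a log2 fold change of 0.29 ± 0.11 that missed the threshold (edgeR adjusted p = 0.0602). It passed without inguinal library 1, without jejunal library 2 and under 4 of the other alternatives, over a range of 0.00714 to 0.292. Without duodenal libraries 1 and 2 both duodenal calls were lost, with an edgeR adjusted p of 0.0965 against inguinal and up to 0.203 against ceco-colonic nodes. The call against ceco-colonic nodes was also lost without duodenal library 1 or ceco-colonic library 3 or 4. The jejunal call was lost under 6 of 28 alternatives, among them leaving out jejunal library 1 or 3 or inguinal library 2, 3 or 4, with up to 0.126. The F-test among gut positions (edgeR adjusted p = 0.0466) lost its call under 16 of 28. Exons of Ccr9 share bases with Slc6a20a on the opposite strand, which stood at 5.02 to 5.91 CPM as means of gut positions and 2.81 CPM in inguinal nodes. They also share bases with Gm17200 on the same strand (1.08 to 1.45 CPM as means of gut positions and 0.759 CPM in inguinal nodes). The strand setting of the quantification is not given in the sources used here, so reads of these genes cannot be told apart where they overlap.

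Ly6d (ENSMUSG00000034634), a GPI-anchored surface protein of lymphoid progenitors, followed another order. Duodenal libraries had 32.9, 20.5, 24.0 and 21.95 CPM, jejunal libraries 21.7, 10.1, 18.7 and 20.1, ileal libraries 17.03, 15.6, 17.1 and 12.05 and ceco-colonic libraries 26.7, 28.25, 27.0 and 21.9 CPM. Inguinal libraries had 27.9, 21.35, 23.0 and 18.5 CPM. Mean levels were highest in ceco-colonic and duodenal and lowest in jejunal and ileal nodes, with inguinal nodes in between, and the ranges of duodenal, jejunal and inguinal libraries overlapped. Over the gut as a whole Ly6d had 20.98 ± 6.005 CPM, against 22.7 ± 3.96 CPM in inguinal nodes (SD, n = 16 and 4), a log2 fold change of -0.15 ± 0.15 (SE, edgeR adjusted p = 0.54). Among gut positions it passed the F-test (edgeR adjusted p = 0.0147).

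Ileal nodes were lower in Ly6d than ceco-colonic nodes (-0.75 ± 0.19 on the log2 scale, SE, edgeR adjusted p = 0.0135), a call lost without ileal library 4 (0.0594). Duodenal nodes were higher than ileal nodes (0.68 ± 0.19, edgeR adjusted p = 0.0238), a call lost without duodenal library 1, without duodenal libraries 1 and 2 or without ileal library 4 (up to 0.154). Ileal nodes were also lower than inguinal nodes (-0.55 ± 0.19, edgeR adjusted p = 0.0452), lost under 12 of 28 alternatives with up to 0.15. Small intestinal nodes averaged 19.3 ± 5.91 CPM and ceco-colonic nodes 26.0 ± 2.79 CPM (SD, n = 12 and 4), a log2 difference of -0.46 ± 0.15 (edgeR adjusted p = 0.0469) that was lost under 16 of 28 alternatives with up to 0.157.

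**Figure D2:**
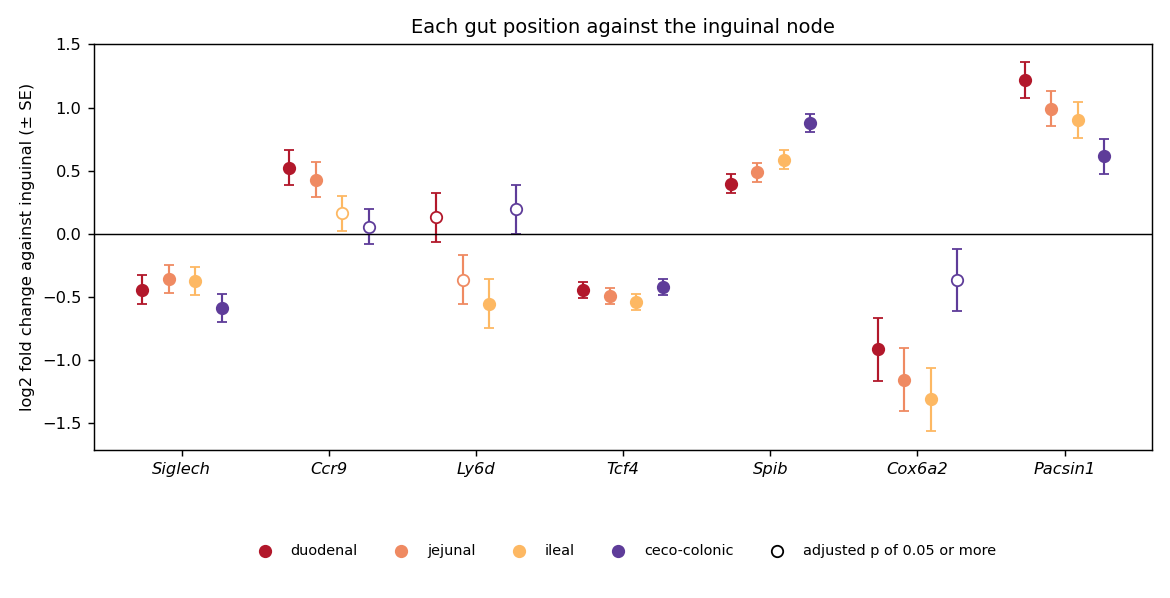
Log2 fold change (± SE) of each gene in each gut position against the inguinal node, by edgeR over 20 libraries; filled points have an adjusted p under 0.05. Siglech and Tcf4 lie below 0 and Spib and Pacsin1 above 0 at all 4 positions, whereas Ccr9, Ly6d and Cox6a2 also have open points.

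Tcf4 (ENSMUSG00000053477) encodes the E protein that starts and maintains the plasmacytoid program. Duodenal libraries had 104, 111, 115 and 113 CPM, jejunal libraries 106, 105.5, 113 and 104, ileal libraries 101, 105, 113 and 94.8 and ceco-colonic libraries 107, 105, 128 and 109 CPM. Inguinal libraries had 144.5, 149, 159 and 148 CPM. Again every inguinal library was above every gut library, and the gut positions overlapped. Gut-draining nodes averaged 108 ± 7.30 CPM and inguinal nodes 150.2 ± 6.435 CPM (SD, n = 16 and 4), a log2 fold change of -0.47 ± 0.05 (SE, edgeR adjusted p = 3.25e-07). By position it ranged from -0.42 ± 0.06 in ceco-colonic to -0.54 ± 0.07 in ileal nodes, all called, and the gut positions did not pass the F-test (edgeR adjusted p = 0.493). When the transcript estimates were added up without length scaling, the duodenal difference came to -0.16 (edgeR adjusted p = 0.088) and the F-test passed (0.00127).

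Spib (ENSMUSG00000008193), the Ets factor that acts beside TCF4, went the other way. Ceco-colonic libraries had 182, 190.0, 192 and 185 CPM, above all others. Ileal libraries had 140.3, 157, 159 and 157 CPM, jejunal libraries 135, 123.5, 153 and 159.5 and duodenal libraries 129, 123, 137 and 148 CPM. Inguinal libraries had 97.95, 100, 109 and 100.5 CPM and were below every gut library. The mean was 154 ± 22.95 CPM in gut-draining and 102 ± 4.865 CPM in inguinal nodes (SD, n = 16 and 4), a log2 fold change of 0.59 ± 0.06 (SE, edgeR adjusted p = 2.49e-07). Against inguinal nodes, duodenal nodes were higher by 0.40 ± 0.07, jejunal by 0.49 ± 0.07, ileal by 0.59 ± 0.07 and ceco-colonic by 0.88 ± 0.07, all called. Small intestinal nodes averaged 143 ± 13.8 CPM and ceco-colonic nodes 187 ± 4.44 CPM (SD, n = 12 and 4), a log2 difference of -0.39 ± 0.06 (edgeR adjusted p = 8.04e-05). Ceco-colonic nodes differed from each other gut position, whereas duodenal, jejunal and ileal nodes did not pass the test against each other (smallest edgeR adjusted p = 0.0878, duodenal against ileal).

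Both factors have other sources in a node. The counts of markers that follow stand beside 13.4% of all genes that rose and 12.9% that fell in gut-draining nodes. Of the B-lineage markers, 1 of 9 tested rose and 4 fell in gut-draining nodes, and their sum was 40.8 to 54.5 CPM in gut and 53.5 to 54.25 CPM in inguinal libraries. The largest part of this B-lineage sum was Ebf1, at 25.26 to 33.87 CPM over all libraries. Cd79b was at 7.722 to 12.02 CPM and Fcrla at 2.978 to 13.84 CPM. Cd79a was lower, at 0.460 to 0.745 CPM, and Igll1 was at 0 in 1 library. Of the intestinal epithelial and M-cell markers, 3 of 6 rose and 1 fell, with a sum of 87.1 to 336 CPM in gut and 88.6 to 124.5 CPM in inguinal libraries, and Fabp2 was at 0 in 3 libraries. Gp2 made up 252 CPM of the highest gut sum, that of duodenal library 1, and without Gp2 the list summed to 83.5 to 138 CPM in gut and 88.6 to 124 CPM in inguinal libraries. Most of that sum was Tnfaip2 (74.1 to 129 CPM), which did not pass (edgeR adjusted p = 0.835). As means, Cdh17 rose to 1.67 CPM in gut-draining nodes, against 0.689 CPM in inguinal nodes (edgeR adjusted p = 3.70e-09). Fabp2 rose to 0.133 CPM, against 0.000813 CPM (edgeR adjusted p = 1.30e-05), and Epcam fell to 6.14 CPM, against 7.23 CPM (0.0039). Endothelial and fibroblast markers summed to 1236 to 1821 CPM in gut and 1462 to 1709 CPM in inguinal libraries, with 1 of 6 higher and 2 lower. The part of these cells in the Spib and Tcf4 levels was not tested.

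Cox6a2 (ENSMUSG00000030785) encodes a subunit of cytochrome c oxidase otherwise known from heart and skeletal muscle. Duodenal libraries had 3.84, 2.225, 2.85 and 2.003 CPM, jejunal libraries 2.69, 1.63, 2.72 and 2.17, ileal libraries 2.81, 1.997, 2.27 and 1.19 and ceco-colonic libraries 4.69, 4.135, 4.02 and 3.12 CPM. Inguinal libraries had 6.55, 4.96, 5.58 and 3.45 CPM. The mean was highest in inguinal and next in ceco-colonic nodes, and the lowest inguinal library lay within the gut range. Cox6a2 averaged 2.77 ± 0.976 CPM in gut-draining and 5.135 ± 1.30 CPM in inguinal nodes (SD, n = 16 and 4), a log2 fold change of -0.94 ± 0.18 (SE, edgeR adjusted p = 0.000563). The log2 fold change was -0.91 ± 0.25 in duodenal, -1.16 ± 0.25 in jejunal and -1.31 ± 0.25 in ileal nodes, all called, while the ceco-colonic value of -0.365 ± 0.25 did not pass (edgeR adjusted p = 0.35). Small intestinal nodes averaged 2.37 ± 0.680 CPM and ceco-colonic nodes 3.99 ± 0.653 CPM (SD, n = 12 and 4), a log2 difference of -0.76 ± 0.19 (edgeR adjusted p = 0.009) that was lost without ceco-colonic library 1 (0.0506). The skeletal muscle markers summed to 5.26 to 6.92 CPM in gut and 6.34 to 6.97 CPM in inguinal libraries. Of these, 2 of 7 tested were higher and 2 lower in gut-draining nodes, beside 13.4% and 12.9% of all genes, and Myh4 was at 0 in 16 of 20 libraries. Among the lower was Myh2, a gene of low level, at 0.044 ± 0.028 CPM in gut-draining and 0.437 ± 0.060 CPM in inguinal nodes (SD, n = 16 and 4). Its log2 fold change was -3.34 ± 0.33 (SE, edgeR adjusted p = 1.23e-07), and the libraries of both groups did not overlap. Myh2 does not stand for the list, in which 2 of 7 rose, and it adds little to the muscle sum. Larger parts of that sum were Mylpf, at 1.57 to 3.43 CPM, and Tnnt3, at 1.115 to 1.73 CPM over all libraries. Itgad, which shares exon bases with Cox6a2 on the opposite strand, stood at 4.82 to 6.46 CPM as means of gut positions and 7.81 CPM in inguinal nodes. The part of muscle or of Itgad reads in the Cox6a2 level was not tested.

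Pacsin1 (ENSMUSG00000040276) encodes a membrane-bending adaptor of endocytosis that plasmacytoid cells need for their interferon response to DNA. Duodenal libraries had 34.2, 31.3, 26.3 and 39.3 CPM, jejunal libraries 28.1, 23.05, 25.85 and 35.2, ileal libraries 24.5, 26.3, 25.5 and 29.2 and ceco-colonic libraries 24.4, 22.1, 21.2 and 18.6 CPM. Inguinal libraries had 16.1, 13.75, 15.8 and 10.75 CPM. Every inguinal library was below every gut library, and the means fell from duodenal over jejunal and ileal to ceco-colonic nodes. Pacsin1 averaged 27.2 ± 5.52 CPM in gut-draining and 14.1 ± 2.46 CPM in inguinal nodes (SD, n = 16 and 4), a log2 fold change of 0.93 ± 0.12 (SE, edgeR adjusted p = 3.64e-06). Set against inguinal nodes, the duodenal value was 1.22 ± 0.14, the jejunal 0.99 ± 0.14, the ileal 0.90 ± 0.14 and the ceco-colonic 0.61 ± 0.14, all called. Small intestinal nodes averaged 29.1 ± 4.96 CPM and ceco-colonic nodes 21.6 ± 2.38 CPM (SD, n = 12 and 4), a log2 difference of 0.42 ± 0.12 (edgeR adjusted p = 0.0146) that was lost without ceco-colonic library 4 (0.0798). Among pairs of gut positions, duodenal against ceco-colonic passed (0.60 ± 0.14, edgeR adjusted p = 0.00473). The neuron and glia markers summed to 41.85 to 76.1 CPM in duodenal libraries, 29.2 to 32.55 CPM in jejunal, 16.2 to 20.9 CPM in ileal, 32.3 to 41.0 CPM in ceco-colonic and 26.4 to 54.1 CPM in inguinal libraries. Of the 7, 2 were higher and 2 lower in gut-draining nodes, beside 13.4% and 12.9% of all genes, and Snap25 was at 0 in 2 libraries. The part of these cells in the Pacsin1 levels was not tested.

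The transcripts of Pacsin1 did not share the difference equally. GENCODE M21 (GRCm38) places the first exon of 4 of its 11 transcripts on chromosome 17 with starts between 27685181 and 27685239 and an end at 27685425, directly behind the Pacsin1 promoter printed above. The first exon of 3 others lies upstream, with starts between 27655509 and 27655588, 29672 bases away. The coding length is 1323 bases both in Pacsin1-202 and Pacsin1-208 from the downstream exon and in Pacsin1-201, Pacsin1-204 and Pacsin1-211 from the upstream exon. Transcripts of the downstream exon summed to 5.06, 7.63, 6.86 and 10.6 TPM in duodenal libraries, 6.03, 5.84, 5.63 and 8.82 in jejunal, 5.90, 6.08, 6.47 and 8.82 in ileal and 3.30, 3.05, 4.01 and 2.64 TPM in ceco-colonic libraries. Inguinal libraries had 0.417, 0.343, 0.909 and 0.419 TPM. The highest inguinal library was below the lowest gut library. Transcripts of the upstream exon stood at 5.54 ± 0.750 TPM in gut-draining and 5.76 ± 0.947 TPM in inguinal nodes (SD, n = 16 and 4), which overlapped. The remaining 4 transcripts had 5.61 ± 0.739 TPM in duodenal nodes, 3.42 to 3.57 TPM as means of the other gut positions and 2.56 ± 0.455 TPM in inguinal nodes. The grouping by first exon was made after the shares of the transcripts had been seen, so it is a description and has no test.

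**Figure D3:**
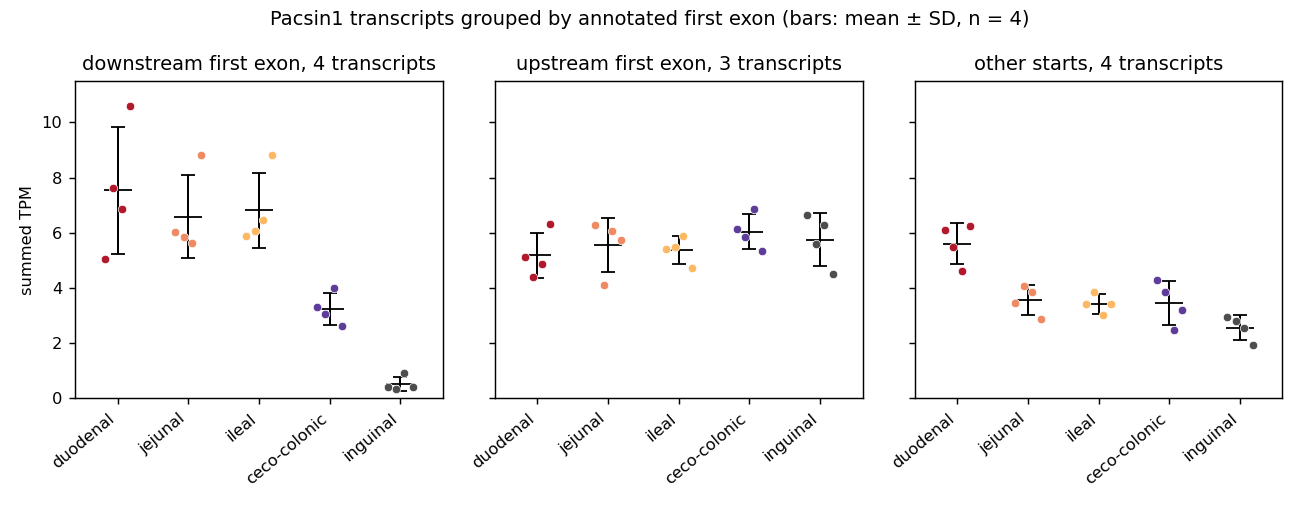
Summed TPM (vertical axis) of Pacsin1 transcripts that start at the downstream first exon, at the upstream first exon or elsewhere, in each library by position; bars are mean ± SD (n = 4). The downstream group spans 2.64 to 10.6 TPM in gut libraries and 0.343 to 0.909 TPM in inguinal libraries, and the upstream group overlaps.

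Single transcripts with a mean share of 5% or more were tested by their share of the gene's TPM. For Pacsin1, 7 of 10 such shares differed between gut-draining and inguinal libraries (two-sided exact permutation test, adjusted over the transcripts of the gene). Pacsin1-202, from the downstream exon, made up 20.8 ± 6.36% in gut-draining and 0.571 ± 0.686% in inguinal libraries (SD, n = 16 and 4, exact permutation, adjusted p = 0.00103). Pacsin1-208, from the same exon, made up 7.05 ± 3.46% and 0.102 ± 0.204% in the same order of groups (exact permutation, adjusted p = 0.00206). Pacsin1-204, from the upstream exon, had the lower share in gut-draining libraries, at 8.05 ± 3.51% against 19.8 ± 4.67% in inguinal libraries (exact permutation, adjusted p = 0.00103). Reads common to several transcripts are divided among them by a model, so these shares are estimates and not counts of distinct reads.

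Siglech transcripts shifted less. Siglech-208, annotated with a coding length of 648 bases, held 23.9 ± 5.26% of the gene's TPM in gut-draining and 15.5 ± 1.71% in inguinal libraries (SD, n = 16 and 4, exact permutation, adjusted p = 0.0165 over 5 transcripts). Siglech-205, with 996 bases, held 14 ± 4.01% in gut-draining and 20.9 ± 3.99% in inguinal libraries (exact permutation, adjusted p = 0.0165). Siglech-206, with 927 bases, held 16.1 ± 2.01% and 18.7 ± 1.85% in the same order of groups (exact permutation, adjusted p = 0.0464). The largest share, that of Siglech-204, annotated for nonsense-mediated decay, was 31 ± 6.15% and 30.7 ± 3.7%. It did not pass (exact permutation, adjusted p = 0.941), nor did Siglech-202 (0.506). By position, Siglech-208 averaged 22.2% in duodenal nodes, 27.7% in jejunal nodes, 28.9% in ileal nodes and 16.8% in ceco-colonic nodes. Of the 62 Tcf4 transcripts in the files, 5 reached the minimum share and 0 passed the test, nor did any at an unadjusted p under 0.05 (smallest adjusted p = 0.367, exact permutation). The most abundant of them, Tcf4-202, held 27.3 ± 5.21% in gut-draining and 23.6 ± 1.5% in inguinal libraries. Neither Ccr9 nor Spib transcripts passed (smallest adjusted p = 0.158 and 0.779, exact permutation), and Ly6d and Cox6a2 have 1 transcript each.

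Set against Siglech within each library, which removes any factor common to both genes, the ratios of Ccr9, Spib and Pacsin1 were higher in gut-draining nodes. Siglech itself was lower there (log2 fold change -0.44), so each ratio also carries that fall. By its own level Ccr9 did not pass (log2 fold change 0.29, edgeR adjusted p = 0.0602). The log2 ratio of Pacsin1 to Siglech was -1.95 ± 0.325 in gut-draining and -3.34 ± 0.18 in inguinal libraries (SD, n = 16 and 4), a difference of 1.38. That of Spib was 0.56 ± 0.34 in gut-draining and -0.47 ± 0.15 in inguinal libraries, a difference of 1.03. That of Ccr9 was -1.58 ± 0.23 in gut-draining and -2.33 ± 0.18 in inguinal libraries, a difference of 0.75. For each of the 3, the two-sided exact permutation p of 0.000206 was the smallest that 4845 arrangements allow (adjusted p = 0.000413 over 6 genes). Tcf4 and Siglech, by contrast, had a log2 ratio of 0.06 ± 0.22 in gut-draining and 0.09 ± 0.145 in inguinal libraries (exact permutation, adjusted p = 0.807). Ly6d, with a difference of 0.29, and Cox6a2, with -0.49, did not pass (exact permutation, adjusted p = 0.332 and 0.16).

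Between small intestinal and ceco-colonic nodes the ratio to Siglech fell for Cox6a2, Spib and Ly6d. The log2 ratio of Cox6a2 was -5.55 ± 0.37 in small intestinal and -4.56 ± 0.07 in ceco-colonic libraries (SD, n = 12 and 4, two-sided exact permutation over 1820 arrangements, adjusted p = 0.0033). That of Spib was 0.42 ± 0.235 in small intestinal and 1.01 ± 0.18 in ceco-colonic libraries (exact permutation, adjusted p = 0.0033). That of Ly6d was -2.53 ± 0.455 in small intestinal and -1.85 ± 0.10 in ceco-colonic libraries (exact permutation, adjusted p = 0.0209), a call lost without ceco-colonic library 2 (0.056). Tcf4, with a difference of -0.265, did not pass (exact permutation, adjusted p = 0.0544), nor did Ccr9 (0.429) or Pacsin1 (0.317).

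**Figure D4:**
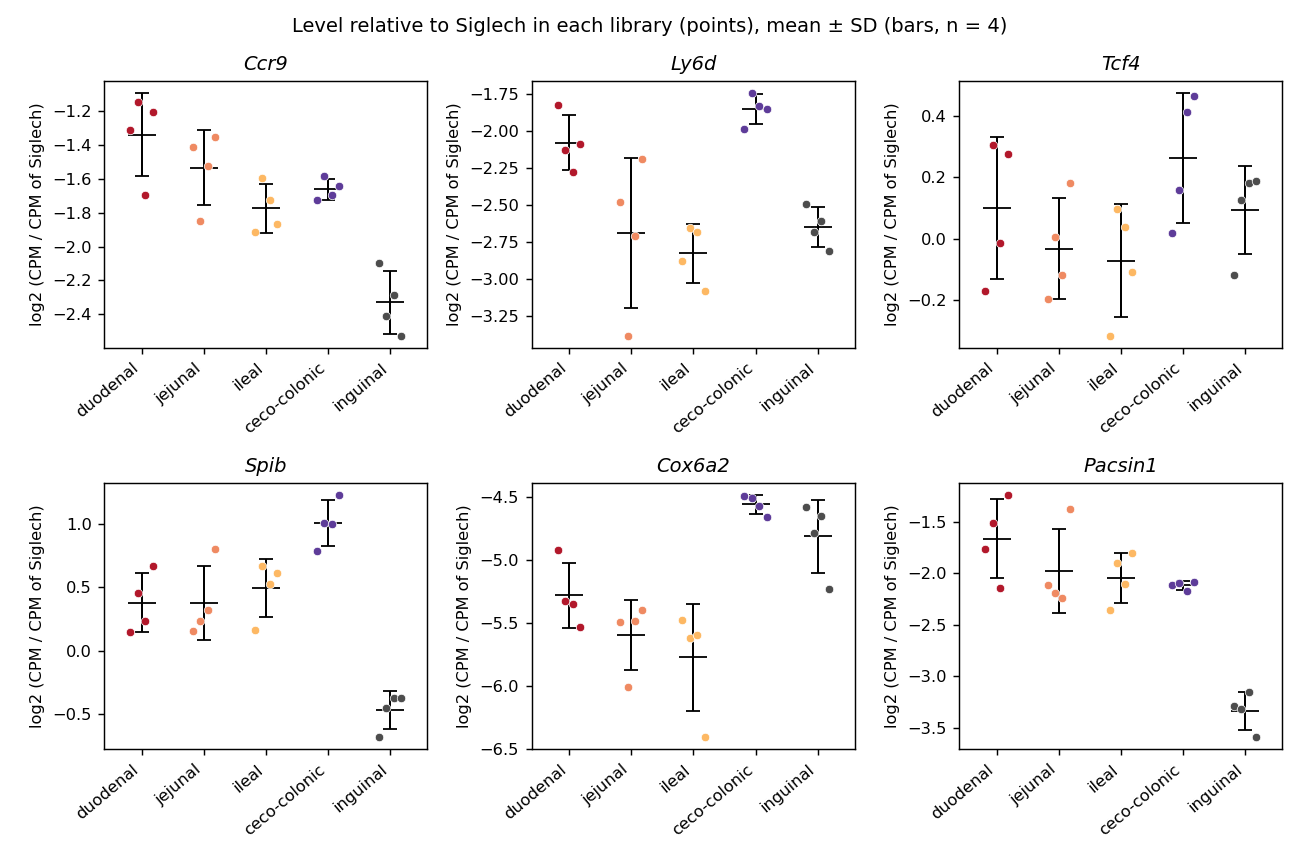
Log2 ratio of the level of 6 genes to that of Siglech (vertical axis) in every library by position; bars are mean ± SD (n = 4). For Ccr9, Spib and Pacsin1 the ratio is lower in each inguinal library than in any gut library, and for Tcf4 the positions overlap.

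Within positions, 4 of 21 pairs were correlated from library to library by Pearson's r and 5 by Spearman's rho, all of them among Siglech, Ccr9, Ly6d and Cox6a2. After subtracting position means from the log2 CPM, Ccr9 and Ly6d had a Pearson's r of 0.84 and a Spearman's rho of 0.83 over 20 libraries (permutation within positions, adjusted p = 0.00133 and 0.00126 over 21 pairs), and r = 0.79 without the 2 libraries farthest from the median. Ly6d and Cox6a2 had r = 0.84 and rho = 0.85 (permutation, adjusted p = 0.00063 for both), and r = 0.85 without the 2 farthest. Ccr9 and Cox6a2 had r = 0.79 and rho = 0.86 (permutation, adjusted p = 0.00084 and 0.00063), and r = 0.76 without the 2 farthest. Siglech and Cox6a2 had r = 0.755 and rho = 0.82 (permutation, adjusted p = 0.00399 and 0.00063), and r = 0.80 without the 2 farthest. Siglech and Ccr9 passed by rho alone (r = 0.58, rho = 0.62, permutation, adjusted p = 0.0616 and 0.0283). Tcf4, Spib and Pacsin1 were in no pair past the threshold by either measure, which for Spib and Pacsin1 depended on how the library numbers were treated. Siglech and Tcf4, which fell together in gut-draining nodes, had r = 0.04 and rho = -0.05 within positions (permutation, adjusted p = 0.919 for both).

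The library numbers moved with these levels. Ccr9 was highest in the library numbered 1 at 5 of 5 positions, Siglech and Cox6a2 at 4 of 5, and Tcf4 was highest in the library numbered 3 at 5 of 5. Cox6a2 was lowest in the library numbered 4 at 4 of 5. With the means of the numbers subtracted as well, an alternative chosen after seeing the data, Ccr9 with Ly6d had r = 0.74 and Ly6d with Cox6a2 r = 0.84, both past the threshold (permutation, adjusted p = 0.0121 for both). Siglech with Cox6a2 then had r = -0.14 and Ccr9 with Cox6a2 r = 0.50, neither past it (permutation, adjusted p = 0.879 and 0.227). With the numbers subtracted, 5 of 21 pairs passed, 3 of them gained and all 3 with Spib. Spib with Ccr9 had r = 0.74 (before the numbers were subtracted, 0.09), Spib with Ly6d 0.79 (0.305) and Spib with Pacsin1 0.76 (0.47), with adjusted p = 0.0121, 0.0147 and 0.0121 in that order (permutation). What the numbers stand for is not given in the sources used here.

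**Figure D5:**
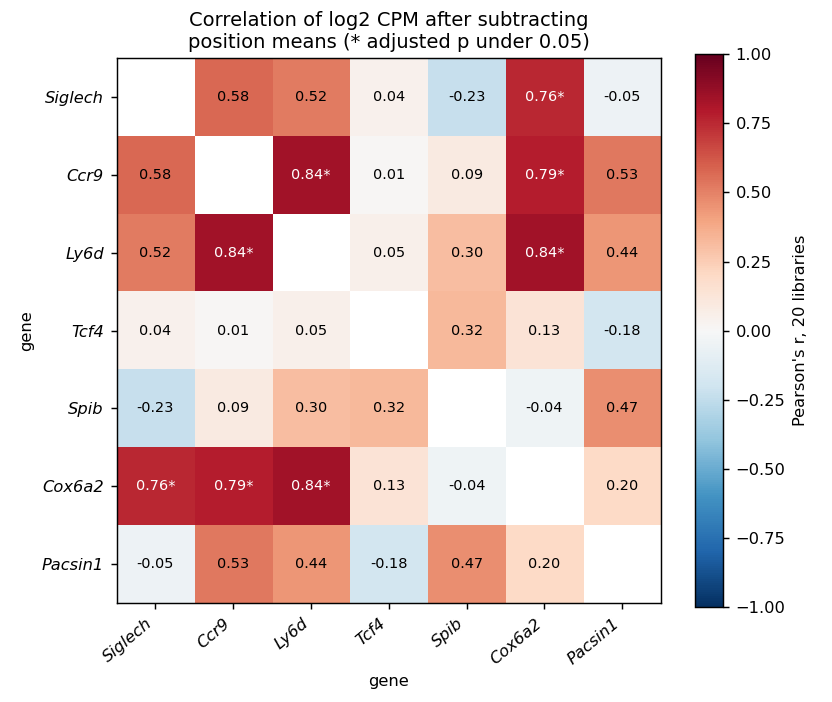
Pearson's r between each pair of the 7 genes (both axes list them) in log2 CPM over 20 libraries after subtracting position means, on a color scale. The 4 pairs past the threshold by r lie among Siglech, Ccr9, Ly6d and Cox6a2.

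Outside the 7, the genes whose log2 CPM was most like that of Siglech over the 20 libraries were Acss1 (Pearson's r = 0.935), Mcoln3 (0.89), Eri3 (0.89), Peg13 (0.88), Itpripl1 (0.88), Kcnj16 (0.88), Cds2 (0.87) and Rab33b (0.87), among 11615 genes with a mean of at least 5 CPM. Acss1, a mitochondrial enzyme that activates acetate, had 37.45 CPM in gut-draining and 46.6 CPM in inguinal nodes as means. Mcoln3, an endolysosomal cation channel, had 9.41 CPM in gut-draining and 20.97 CPM in inguinal nodes. In the same ranking Tcf4 came at place 684 (r = 0.615) and Spib at place 11392 (r = -0.75). After subtracting position means the genes most like Siglech were Prpsap2 (0.90), Hif1an (0.87), Aldh9a1 (0.86), Acss1 (0.86), Zfp202 (0.85), Gdpd1 (0.85), Tex2 (0.85) and Crem (0.84), with Cox6a2 at place 79. These r share library depth and scaling and have no test.

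Further genes enriched in plasmacytoid cells were divided in direction as well. Of 15 other surface and enriched genes, 4 rose and 7 fell in gut-draining against inguinal nodes, beside 13.4% and 12.9% of all genes, with a median log2 fold change of -0.175 beside 0.002 over all genes. Pld4, an endosomal exonuclease and the most abundant of them, averaged 331 ± 29.7 CPM in gut-draining and 320.3 ± 25.9 CPM in inguinal nodes and did not pass (SD, n = 16 and 4, edgeR adjusted p = 0.624). Tyrobp, which encodes the DAP12 adaptor, fell, with 261 ± 26.1 CPM in gut-draining and 293.5 ± 23.65 CPM in inguinal nodes (log2 fold change -0.175 ± 0.06, SE, edgeR adjusted p = 0.0321). Atp1b1, a subunit of the sodium pump, fell to 32.1 ± 9.09 CPM in gut-draining nodes, against 60.1 ± 7.99 CPM in inguinal nodes (-0.95 ± 0.08, edgeR adjusted p = 2.75e-08). Smim5, a small membrane protein, fell to 4.81 ± 0.855 CPM in gut-draining nodes, against 8.69 ± 1.36 CPM in inguinal nodes (-0.86 ± 0.10, 2.13e-06). Bst2, named here because it is both the antigen used to stain these cells and an interferon-induced gene, rose to 257 ± 44.4 CPM in gut-draining nodes, against 191 ± 14.9 CPM in inguinal nodes (0.42 ± 0.10, 0.00475). In small intestinal against ceco-colonic nodes 0 of 15 rose by edgeR (2 at an unadjusted p under 0.05) and 3 fell, beside 8.90% and 7.74% of all genes.

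Among 12 regulators of plasmacytoid development, 1 rose and 4 fell in gut-draining nodes, beside 13.4% and 12.9% of all genes, with a median log2 fold change of -0.145. Runx2, a Runt factor that governs the exit of these cells from marrow, fell to 31.7 ± 6.81 CPM in gut-draining nodes, against 49.3 ± 2.45 CPM in inguinal nodes (log2 fold change -0.66 ± 0.07, SE, edgeR adjusted p = 1.87e-07). Bcl11a, which activates Tcf4, fell to 22.03 ± 4.68 CPM in gut-draining nodes, against 30.6 ± 1.625 CPM in inguinal nodes (-0.495 ± 0.10, edgeR adjusted p = 0.000726). Id2, an inhibitor of E proteins, was the one that rose (294 ± 26.9 CPM in gut-draining and 259 ± 6.31 CPM in inguinal nodes, 0.18 ± 0.07, 0.0463). Irf8, with 690.1 ± 50.7 CPM in gut-draining and 625 ± 28.0 CPM in inguinal nodes, and Cbfa2t3, with 315 ± 47.6 CPM and 275 ± 5.46 CPM in the same order of groups, were the most abundant and missed the threshold (edgeR adjusted p = 0.0513 and 0.0568). In small intestinal against ceco-colonic nodes 1 rose and 4 fell, beside 8.90% and 7.74% of all genes. Flt3, the receptor whose signal sustains these cells, fell to 203 ± 12.2 CPM in small intestinal nodes, against 266 ± 12.9 CPM in ceco-colonic nodes (SD, n = 12 and 4, -0.385 ± 0.05, edgeR adjusted p = 8.22e-06). The gene of its ligand, Flt3l, was the one that rose (93.9 ± 4.50 CPM in small intestinal and 69.8 ± 8.255 CPM in ceco-colonic nodes, 0.43 ± 0.06, 2.25e-05). Id2, Flt3 and Flt3l, like Bst2, were chosen after their values were seen.

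The genes of nucleic acid sensing moved one way where they passed the test. Of 9 tested, 6 rose and 0 fell in gut-draining nodes by edgeR, also at an unadjusted p under 0.05 for the falls, beside 13.4% and 12.9% of all genes, with a median log2 fold change of 0.32. Irf7, the factor that turns on interferon alpha genes, rose to 651 ± 196 CPM in gut-draining nodes, against 369.8 ± 99.8 CPM in inguinal nodes (log2 fold change 0.785 ± 0.18, SE, edgeR adjusted p = 0.00281). Irf5, which acts below the same receptors, rose to 223 ± 26.3 CPM, against 152 ± 6.07 CPM in inguinal nodes (0.55 ± 0.08, edgeR adjusted p = 1.34e-05). Unc93b1, which carries these receptors to endosomes, had 493 ± 57.9 CPM in gut-draining and 442 ± 11.4 CPM in inguinal nodes and did not pass (0.0896). The interferon genes were close to undetected: Ifnb1, also called, had 2 to 32 estimated counts in gut libraries and 1 to 2 in inguinal libraries, which is too few for a fold. Ifna1, Ifna2, Ifna4 and Ifna5 did not pass the filter on low counts, with at most 22 estimated counts in any gut and 8 in any inguinal library. Interferon response genes, which most cell types of a node can express, rose in 14 of 14 cases in gut-draining nodes, beside 13.4% of all genes. In small intestinal against ceco-colonic nodes 8 of 14 rose and 0 fell, beside 8.90% and 7.74% of all genes.

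Of 11 homing genes, 2 rose and 6 fell in gut-draining nodes, beside 13.4% and 12.9% of all genes, with a median log2 fold change of -0.36. Ccl25, the ligand of CCR9 and named for that role, had 5.60 ± 0.428 CPM in gut-draining and 5.70 ± 0.494 CPM in inguinal nodes and did not pass (SD, n = 16 and 4, edgeR adjusted p = 0.834). Ccr7, the receptor for entry into nodes, rose to 840.2 ± 112 CPM in gut-draining nodes, against 556.5 ± 50.85 CPM in inguinal nodes (log2 fold change 0.59 ± 0.07, SE, edgeR adjusted p = 1.32e-06). Itga4, an integrin chain of gut homing, rose to 349.9 ± 35.3 CPM, against 243 ± 9.94 CPM in inguinal nodes (0.52 ± 0.07, 7.75e-06). Cxcr3, a receptor for interferon-induced chemokines, fell to 19.4 ± 1.485 CPM, against 38.2 ± 2.645 CPM in inguinal nodes (-0.98 ± 0.06, 7.66e-11). Ccr2, a receptor also counted among the monocyte markers, fell to 116.9 ± 32.67 CPM, against 204.1 ± 21.61 CPM in inguinal nodes (-0.84 ± 0.08, edgeR adjusted p = 9.51e-08). In small intestinal against ceco-colonic nodes 0 of 11 rose by edgeR (1 at an unadjusted p under 0.05) and 3 fell, beside 8.90% and 7.74% of all genes.

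Other dendritic cells and phagocytes share many of the genes above. The counts of their markers stand beside 13.4% of all genes that rose and 12.9% that fell in gut-draining nodes. Type 2 dendritic cell markers rose in 0 and fell in 5 of 6 cases in gut-draining nodes, and summed to 473 to 729 CPM in gut and 785 to 887 CPM in inguinal libraries. As for Siglech and Tcf4, each inguinal library was above every gut library. Type 1 dendritic cell markers rose in 2 and fell in 2 of 6 cases (313 to 419 CPM in gut and 318 to 349 CPM in inguinal libraries). Monocyte markers rose in 2 and fell in 2 of 5 (884 to 1441 and 986 to 1171 CPM in gut and inguinal libraries), and macrophage markers rose in 1 and fell in 2 of 6 (1329 to 3028 and 1885 to 2250.0 CPM). No defining marker of these 4 lists was at 0 in any library. The part of these cells in the levels reported here was not tested.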

How the data were processed

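RNA of whole nodes was purified with a PicoPure kit and poly(A) libraries were made with a NEBNext kit, per the labels' protocols. The authors deposited estimated counts per gene (56258 genes, 135 without a symbol), and per library the estimated counts and TPM of 149419 transcripts. Kallisto, limma and edgeR are named without versions in the submitters' processing notes, with the builds GRCm39 and mm10 and no role for either. The sources used here give no strand setting.

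Gene estimates were rounded to whole numbers and fitted with edgeR 4.0.16 in R 4.3.3 (TMM, quasi-likelihood, 1 mean per position, all 20 libraries), after a filter (minimum count 10, minimum total 15) that left 29411 genes. P-values were adjusted by Benjamini-Hochberg over these, with a threshold of 0.05. Log2 CPM used a prior count of 2. Position means were weighted equally. Depth was 148 to 305 M estimated counts per library, 0 pairs of libraries were identical, and estimates carry quantification error beside counting error. In counts simulated for gut-draining against inguinal nodes over 29411 genes, 48% of 100 genes changed 1.5-fold and 75% of 100 changed 2-fold were recovered. Of the calls, 3.15% were false. Far fewer genes were changed there than the 26.3% of genes called in the data, so these rates hold for that setting alone. Ratios and transcript shares (minimum mean share 5%) had two-sided exact permutation tests over libraries. Correlations used 100000 permutations within positions (10000 where a library was left out), with scipy 1.17.1 and numpy 2.4.6. Transcript structures are GENCODE M21 and promoters RefSeq GRCm38.p6, used apart from the counts.

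The 7 genes and all lists were chosen with earlier results of these data known. Text names all 7 and the 8 genes most like Siglech. From each plasmacytoid list it names the 2 most abundant genes and genes among those with the smallest p in gut-draining against inguinal nodes. Other genes of these lists are named only where said. Marker lists of innate lymphoid, T-lineage and keratinocyte cells were counted too: in gut-draining nodes 1 of 6 rose and 4 fell, 1 of 6 rose and 2 fell, and 0 of 3 tested rose and 2 fell. Of all genes, 13.4% rose and 12.9% fell there. Alternatives were other tools (DESeq2 1.42.0, limma-voom 3.58.1) and scaling, no filter, plain transcript sums, the compared groups alone, a block for library number, a prior count of 0.5, and leaving out each library or duodenal libraries 1 and 2.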

Additional observations from a re-analysis of the deposited data

Results flagged for a closer look

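In 3 of 35 groups of 4 libraries, 1 library stood far from the other 3 by Dixon's test, which chance gives in about 1 of 20 groups. Ccr9 was 27.98 CPM in ileal library 4, below the other ileal libraries. Tcf4 was 127.6 CPM in ceco-colonic library 3, above the other ceco-colonic libraries. Spib was 140.3 CPM in ileal library 1, below the other ileal libraries.

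The difference from inguinal nodes was not the same at all 4 gut positions for 5 of the 7 genes, by edgeR's F-test over the gut positions. The adjusted p was 0.0003311 for Spib, whose highest position was ceco-colonic, and 0.02138 for Pacsin1, whose highest position was duodenal. It was 0.01466 for Ly6d and 0.02839 for Cox6a2, both lowest in ileal nodes, and 0.04656 for Ccr9, highest in duodenal nodes. Siglech and Tcf4 did not pass this test.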

How the results depend on the processing

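Over 3348 values of single genes compared with alternatives, 90 calls were lost, 49 were gained, and 59 values changed sign without a call on either side. The correlation of Siglech and Cox6a2 changed sign, to r = -0.144, with the means of the library numbers subtracted as well. DESeq2, limma-voom, other scaling and no filter left the counts of genes called within 1.5 times of those reported, and gut-draining against inguinal nodes kept 5 to 6 called genes without any 1 library. Counts between gut positions depended more on the processing, and the cause was not tested. Between duodenal and ileal nodes the count of 1 became 3 with a block for library number, 2 with plain transcript sums, 2 with the compared groups alone and 0 without duodenal libraries 1 and 2. Between duodenal and jejunal nodes the count of 0 became 1 with plain transcript sums, and between jejunal and ceco-colonic nodes the count of 2 became 5 with the block. Among the 4 gut positions the count of 5 became 3 without duodenal libraries 1 and 2. Leaving out each library in turn gave 2 to 5 calls in small intestinal against ceco-colonic nodes, 0 to 2 in duodenal against ileal, 1 to 3 in jejunal against ceco-colonic, 1 to 3 in ileal against ceco-colonic, 3 to 5 among gut positions, and 4 to 7 correlated pairs. The labels do not say what the library numbers stand for. Over 40 pairs of same-numbered libraries the correlation of deviations from the group means was -0.086 to 0.357 (median 0.075), over 0.1 in 13. Of 20 libraries, 12 correlated best with their own number. The main fits did not treat the numbers as a pairing, a choice that these values do not settle. Siglech, Ccr9, Tcf4 and Cox6a2 ranked by number at most positions, and the p-values of the main fits take no account of that. Whether same-numbered libraries share a mouse was not tested. Cox6a2, the lowest in CPM, is the gene whose levels depth limits most.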
